A study of Mus musculus with 12 samples.

Results

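Wild type (WT) mouse macrophages that had spent 24 h with lipopolysaccharide (LPS) at 100 ng/mL were compared with WT macrophages that received none, with 3 libraries in each group. These are 6 of the 12 libraries of a study of COQ6 D316Y, a change in an enzyme of coenzyme Q synthesis; the other 6 came from homozygous D316Y macrophages with and without LPS. The cells were grown from red-cell-depleted bone marrow for 6 days in medium that held 10% L929-conditioned medium (it supplies macrophage colony-stimulating factor), so both groups were macrophages differentiated in culture rather than taken from a tissue. The strain, sex and age of the mice were not given in the sources used here, nor was the origin of the replicates (separate mice, separate cultures or neither); the p-values below therefore measure only the spread between these libraries. Of 12441 genes with a deposited value, 11663 averaged 0 or more log2 CPM (reads per gene scaled to a library of 1 M reads, on a log2 scale) in one of the WT groups and were compared.

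LPS is a lipid of the outer membrane of Gram-negative bacteria. CD14 and the TLR4-MD-2 complex bind it at the cell surface, and TLR4 then signals through MYD88 to NF-kB and AP-1 and, after uptake, through TICAM1 to IRF3 and type I interferon. The first wave of cytokine genes peaks within hours, whereas at a day the RNA of a macrophage also holds later products, such as enzymes of nitric oxide and itaconate synthesis, interferon-induced genes and the inhibitors that damp the signal.

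The cells of both groups carried macrophage RNA. Adgre1, which encodes the surface antigen F4/80, had 5529, 3135 and 4479.5 CPM with LPS, against 2948, 1593 and 1554 CPM without it. Csf1r, the receptor for macrophage colony-stimulating factor, had 2675, 1326 and 2034 CPM with LPS and 3484, 1849.6 and 1739.8 CPM in unstimulated cells. The 9 macrophage markers given here (Adgre1, Csf1r, Cd68, Spi1, Fcgr1, Mertk, Lyz2, Itgam and Mpeg1) were present in every WT library. Fcgr1, an Fc receptor, rose by 1.35 on the log2 scale and Cd68, a lysosomal membrane protein, fell by 1.42. Adgre1, Itgam and Lyz2 also passed, at 1.14, 1.07 and 0.98, but Adgre1 and Itgam did not pass without LPS replicate 1 or 3 or unstimulated replicate 2 or 3, and Lyz2, which encodes lysozyme, stood at -0.57 under quantile normalization; none of the 3 passed on the read scale. The other 4 did not pass, and of the 26 lineage genes tested 8 rose and 10 fell, with 5 and 6 without LPS replicate 3 and 5 higher without unstimulated replicate 3; on the read scale 3 rose and 13 fell. The library totals were 47.2, 46.1 and 46.6 M reads with LPS and 46.9, 36.9 and 32.8 M without it. The first principal component (78.8% of the variance) set the LPS libraries apart from the unstimulated ones. On the second (11.5%), unstimulated replicate 1 stood at 42.1, apart from the other unstimulated libraries at -23.6 and -18.4. The LPS libraries also spread on it, at 20.2, -20.7 and 0.4, with LPS replicate 1 on the side of unstimulated replicate 1. Unstimulated replicate 1 had 0.449% of its reads on mitochondrially encoded genes, where the other unstimulated libraries had 2.15% and 1.97%. The LPS libraries had 0.658%, 1.08% and 0.849%.

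After 24 h with LPS, 3654 of the 11663 genes (31.3%) differed at a limma adjusted p under 0.05, which is what "passed", "rose" and "fell" mean below. Of these, 1759 (15.1%) were higher with LPS and 1895 (16.2%) were lower. A difference of at least 2-fold was found for 976 of the genes that rose (8.37% of those tested) and 1173 of those that fell (10.1%), of at least 16-fold for 102 and 89, and of at least 256-fold for 16 and 1. The libraries of the 2 groups did not overlap for 5459 genes (46.8%). The median difference over all tested genes was -0.01 on the log2 scale. This balance rests on the authors' scaling: with the values scaled instead to the reads in the table, called the read scale below and chosen after seeing the data, the median gene stood at -0.51, and 838 genes were called higher and 5229 lower. Differences below use the deposited scale; a median or count on the read scale is to be read against that shift.

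**Figure D1:**
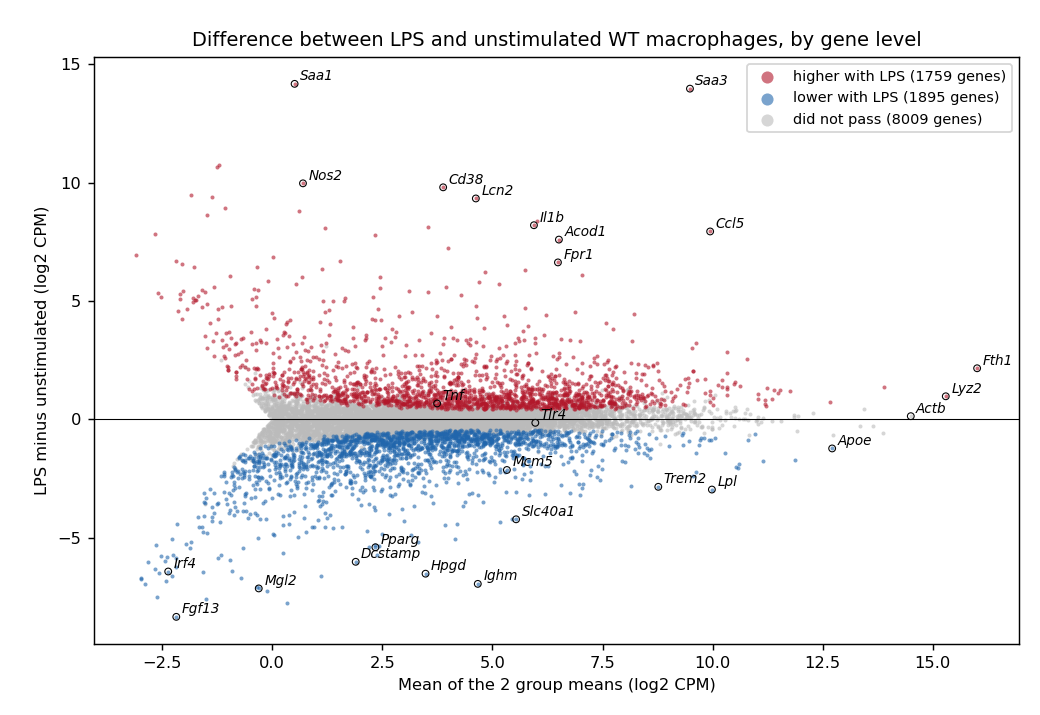
Each point is 1 of the 11663 tested genes, with the mean of the LPS and unstimulated group means on the x axis (log2 CPM) and LPS minus unstimulated on the y axis (log2 CPM, 3 libraries each); red genes were higher and blue genes lower at a limma adjusted p under 0.05. Saa3 lies at 13.97 on the y axis, while Fth1, the gene with the highest level, lies at 2.16.

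Serum amyloid A genes were among those with the largest rises. Saa3, an acute-phase apolipoprotein that macrophages make themselves, had 72720.0, 114420.0 and 89754 CPM with LPS, against 5.58, 7.72 and 4.21 CPM without it. It rose by 13.97 on the log2 scale (SE 0.26, limma adjusted p 8.82e-09), a 16025-fold difference, and took 6.64%, 9.45% and 7.93% of all reads in the LPS libraries. Saa3 lies on chromosome 7 at 46711998 to 46715700 (GRCm38, GENCODE M21, as all positions of genes here). Its neighbours Saa1 and Saa2, which are near-identical to each other so that reads may be split between them, had 6647, 8822 and 8270 and 253, 297 and 356 reads with LPS and 0 in each unstimulated library. Against a floor of 3 reads per library, Saa1 was at least 3093-fold and Saa2 at least 118-fold higher with LPS.

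The other acute-phase and antimicrobial genes moved the same way for the most part: of 19 listed members tested, 13 rose and 2 fell, with a median of 2.56 against -0.01 over all genes. Lcn2, the siderophore-binding lipocalin that starves bacteria of iron, had 813, 509 and 591 CPM with LPS, against 1.07, 1.57 and 0.546 CPM in unstimulated cells (9.33, SE 0.35). Hp, which encodes the hemoglobin scavenger haptoglobin, had 1384, 1052 and 1088 CPM with LPS and 4.38, 3.11 and 3.22 CPM without it (8.37, SE 0.19). The protease inhibitor Slpi, the cathelicidin Camp and Wfdc21 rose by 6.00, 5.18 and 8.79. S100a4 fell by 1.601, and Ngp, a neutrophil granule gene, fell by 1.26; neither passed without LPS replicate 3, nor did Ngp without any other library but LPS replicate 1. Camp, Ngp and S100a8 are also neutrophil markers: of 15 such markers 6 could be tested, 3 rose and 1 fell, and their summed level was 197 to 206 CPM with LPS and 71.5 to 95.2 CPM without it, most of it from Csf3r. Whether neutrophils added to these values was not tested, and in bulk RNA fewer cells of a type and less RNA per cell cannot be told apart.

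The genes that fell the most were of several kinds. Mgl2, a galactose-type C-type lectin of macrophages activated by interleukin-4, had 0.0348, 0.0394 and 0.231 CPM with LPS and 8.11, 10.1 and 10.7 CPM without it, a fall of 7.13. Hpgd, which inactivates prostaglandins, had 1.496, 0.986 and 1.08 CPM with LPS, against 112, 101 and 107 CPM (-6.51, SE 0.19). Angptl4, an inhibitor of lipoprotein lipase, fell by 7.07, and Dcstamp, needed for the fusion of macrophages into osteoclasts and giant cells, fell by 6.01. Fgf13 and Pde1c had 0 reads in every LPS library and were at least 57.0-fold and 31.5-fold lower with LPS against the same floor. Gprc5c, Tox2, Slco2b1, Lyzl4, Samd4, Gpr34, Mn1 and Galnt9 fell by between 7.74 and 6.38 on the log2 scale. With Ighm these are the 15 largest falls among genes that averaged 1 log2 CPM or more in either group and have no predicted or clone name; less abundant genes such as Irf4, given below, are not counted.

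Ighm, the immunoglobulin mu heavy chain, stood among those falls with 2.73, 1.46 and 3.02 CPM in LPS libraries, against 323, 243 and 285 CPM in unstimulated libraries (-6.94, SE 0.26). Of 10 B and plasma cell markers 3 could be tested: Cd22 also fell (-1.05) and Cd79b, a chain of the B cell receptor, rose (0.75). Cd22 did not pass without LPS replicate 1, nor Cd79b without LPS replicate 2 or 3, without unstimulated replicate 3 or on the read scale (0.24). The summed level of the 3 was 13.4 to 15.9 CPM with LPS and 255 to 341 CPM without it; Ighm was nearly all of it without LPS, and Cd79b the largest part with LPS. The part of B cells in this difference was not tested.

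Promoters of some genes that rose, in the cytokine, chemokine, interferon and acute-phase groups, are shown here. They were picked because they hold short words that NF-kB, interferon-activated factors and AP-1 are known to bind. The words in them therefore do not show how common such words are among genes that rose. The windows are RefSeq's (GRCm38.p6), are cut to the part that holds the words, run up to the base before the start of the gene in 5′ to 3′ direction, and have in capitals every match on either strand of the NF-kB word (GGG and TTCC with 3 bases of any kind between them), the interferon-response word (GAAA and GAAA with 2 such bases between them) and the AP-1 word TGANTCA. The window of Cxcl10 (chr5:92348890-92349112, minus strand) held 2 NF-kB words, 1 interferon-response word and 1 AP-1 word. That of Il6 (chr5:30012864-30013113, plus strand) held 1 NF-kB and 1 AP-1 word. In Cxcl3 (chr5:90785971-90786100, plus strand) there were 3 NF-kB words, of which 2 overlap on opposite strands. Gbp2 (chr3:142620533-142620662, plus strand) had 1 AP-1 word and 1 interferon-response word, read on the opposite strand. Il1a (chr2:129309973-129310102, minus strand) had 1 AP-1 word close to the start, and Saa3 (chr7:46715677-46715811, minus strand) 1 interferon-response word.
Cxcl10: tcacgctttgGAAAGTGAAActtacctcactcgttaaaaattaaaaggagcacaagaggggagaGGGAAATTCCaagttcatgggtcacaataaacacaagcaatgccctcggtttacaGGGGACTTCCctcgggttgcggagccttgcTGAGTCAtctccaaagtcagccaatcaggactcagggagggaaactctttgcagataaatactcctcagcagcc
Il6: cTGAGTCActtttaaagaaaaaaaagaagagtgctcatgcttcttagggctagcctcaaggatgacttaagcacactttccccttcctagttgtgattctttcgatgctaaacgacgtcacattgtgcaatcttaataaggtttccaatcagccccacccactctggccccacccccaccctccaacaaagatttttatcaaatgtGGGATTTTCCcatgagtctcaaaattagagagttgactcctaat
Cxcl3: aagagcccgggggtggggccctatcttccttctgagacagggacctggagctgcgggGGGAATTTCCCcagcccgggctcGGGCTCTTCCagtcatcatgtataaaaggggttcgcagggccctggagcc
Gbp2: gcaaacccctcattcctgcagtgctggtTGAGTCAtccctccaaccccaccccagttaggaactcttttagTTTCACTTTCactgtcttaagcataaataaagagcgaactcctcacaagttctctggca
Il1a: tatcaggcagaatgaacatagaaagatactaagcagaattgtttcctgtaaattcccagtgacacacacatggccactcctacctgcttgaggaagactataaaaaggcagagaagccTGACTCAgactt
Saa3: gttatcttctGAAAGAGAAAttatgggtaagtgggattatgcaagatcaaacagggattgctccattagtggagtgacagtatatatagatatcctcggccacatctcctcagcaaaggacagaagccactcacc

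A window of 250 bases before to 50 after the start was given for 8448 of the 10389 protein-coding genes tested (81.3%). Of the 1260 genes with a window that rose, 8.02% held the interferon-response word, 7.86% the NF-kB word and 6.90% the AP-1 word, against 2.82%, 6.11% and 4.32% of the 5748 that did not pass and 3.49%, 5.53% and 7.93% of all 27025 promoters in the table. Of the 247 that rose at least 4-fold, the shares were 10.5%, 7.29% and 11.3%. Lists varied. The interferon-response word was in 26 of 54 interferon-stimulated antiviral genes (48.1%), 9 of 10 guanylate-binding proteins and related GTPases and 1 of 36 glycolysis and hypoxia genes. No inflammatory cytokine or CC chemokine held it. The NF-kB word was in 4 of 7 CXC chemokines (57.1%), 7 of 15 NF-kB subunits and regulators, 3 of 13 inflammatory cytokines and 1 of 8 CC chemokines. Of the mitosis genes, 1 of 32 (3.13%) held each of these 2 words. Of the protein-coding genes that fell, 78.7% had a window, against 81.2% of those that rose. Of these 1440 genes, 1.81% held the interferon-response word, 5.49% the NF-kB word and 6.60% the AP-1 word. The AP-1 share was thus close to that of the genes that rose. A word in a window is a match of letters and shows no binding, and 1 window was taken for each gene.

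Genes of the LPS receptor and its adaptors moved in both directions. Of 26 members tested, 7 rose and 2 fell, with a median of 0.09, which becomes -0.42 on the read scale, where 3 rose and 9 fell. Tlr4 itself had 71.0, 51.4 and 58.7 CPM with LPS, against 73.0, 64.7 and 60.8 CPM without it, and did not pass (-0.14, 95% interval -0.51 to 0.23, limma adjusted p 0.557); on the read scale it passed as lower (-0.65, adjusted p 0.0153). Cd14, the co-receptor that hands LPS to TLR4, had 2328, 1631 and 1674 CPM with LPS and 1093, 765 and 856 CPM in unstimulated cells, a rise of 1.05 (SE 0.22). Ly96, which encodes MD-2, and Myd88 rose by 0.66 and 0.82, though neither they nor Cd14 passed on the read scale. The largest rise in this group belonged to Irak3, a pseudokinase that holds back signalling from Toll-like receptors, at 182, 137 and 159 CPM with LPS, against 19.0, 11.4 and 14.1 CPM without it (3.45). Rab7b, a small GTPase that promotes the breakdown of TLR4, fell by 1.09.

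Among other receptors for microbes, 12 of 25 rose and 5 fell, with 3 lower without LPS replicate 1 or 2 or unstimulated replicate 3 and 8 lower on the read scale. Marco, a scavenger receptor for bacteria, rose by 6.32, with 537, 416 and 481 CPM in LPS libraries and 17.05, 4.33 and 2.85 CPM in unstimulated libraries. Clec4e, the Mincle receptor for mycobacterial cord factor, rose by 6.09, with 1102, 1176 and 997 CPM against 13.6, 17.7 and 16.9 CPM. Trem2, a lipid receptor that restrains inflammatory signalling, and Clec7a, the beta-glucan receptor dectin-1, went down by 2.84 and 3.17; Trem2 had 154, 192 and 145 CPM with LPS and 1232, 1087 and 1185 CPM without it. Tlr1 rose by 1.13, while Tlr13, a sensor of bacterial ribosomal RNA, fell by 1.10.

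Of 19 NF-kB subunits and regulators, 11 rose and 1 fell (median 0.78), against 8 and 7 on the read scale (median 0.27). Nfkbia, the inhibitor IkB alpha, had 679, 849 and 829 CPM with LPS and 285, 229 and 228 CPM without it (1.67), and N4bp1, Tnip1, Bcl3, Relb and Nfkbie rose by 2.28, 1.49, 1.49, 1.15 and 1.09. Nfkb1, which encodes p105 and p50, fell by 0.67, a call lost without LPS replicate 1 or 3 or unstimulated replicate 1 or 3.

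Inflammatory cytokine genes rose in 13 of 17 cases and fell in none (median 1.67). Il1b, which encodes interleukin-1 beta, had 1177, 942 and 1059 CPM with LPS, against 4.72, 3.99 and 2.44 CPM without it, a rise of 8.20 (SE 0.24, limma adjusted p 5.77e-08). Its neighbour Il1a rose by 8.09, with 41.2, 33.5 and 38.4 CPM against 0.457, 0.0948 and 0.0607 CPM. Il1b lies on chromosome 2 at 129364570 to 129371139. Il6 and Il12b were scarce even with LPS, at 1.404, 2.12 and 1.396 CPM and 2.59, 1.14 and 1.66 CPM, against 0.0448, 0.0105 and 0.109 CPM and 0.0448, 0.0526 and 0.109 CPM in unstimulated cells. Both passed, at 5.43 (SE 0.88) and 4.74 (SE 0.61). Ifnb1, interferon beta, rose by 4.13, with 2.45, 9.16 and 6.59 CPM with LPS and 0.385, 0.347 and 0.206 CPM without it.

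Tnf, a classical early LPS product, did not pass at 24 h and lay close to the threshold. It had 13.3, 21.997 and 16.6 CPM with LPS and 8.56, 13.3 and 10.5 CPM without it, a difference of 0.68 (95% interval 0.15 to 1.20, limma adjusted p 0.0523); the groups did not overlap. In the fit of all 12 libraries, and with median centring, it passed (adjusted p 0.0206 and 0.0440), as it did without LPS replicate 1 or unstimulated replicate 2 (0.0295 and 0.0399). Osm and Csf1 did not pass either (-0.51 and -0.31), and were lower on the read scale (-1.01 and -0.82). Il10, the anti-inflammatory cytokine that LPS also induces early, was lower with LPS, at 1.59, 3.98 and 3.24 CPM, against 6.60, 6.94 and 7.49 CPM in unstimulated cells (-1.35, SE 0.32, limma adjusted p 0.0109). Il23r, the interleukin-23 receptor chain, had 749, 630 and 679 reads with LPS and 0 in each unstimulated library, so it was at least 266-fold higher.

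**Figure D2:**
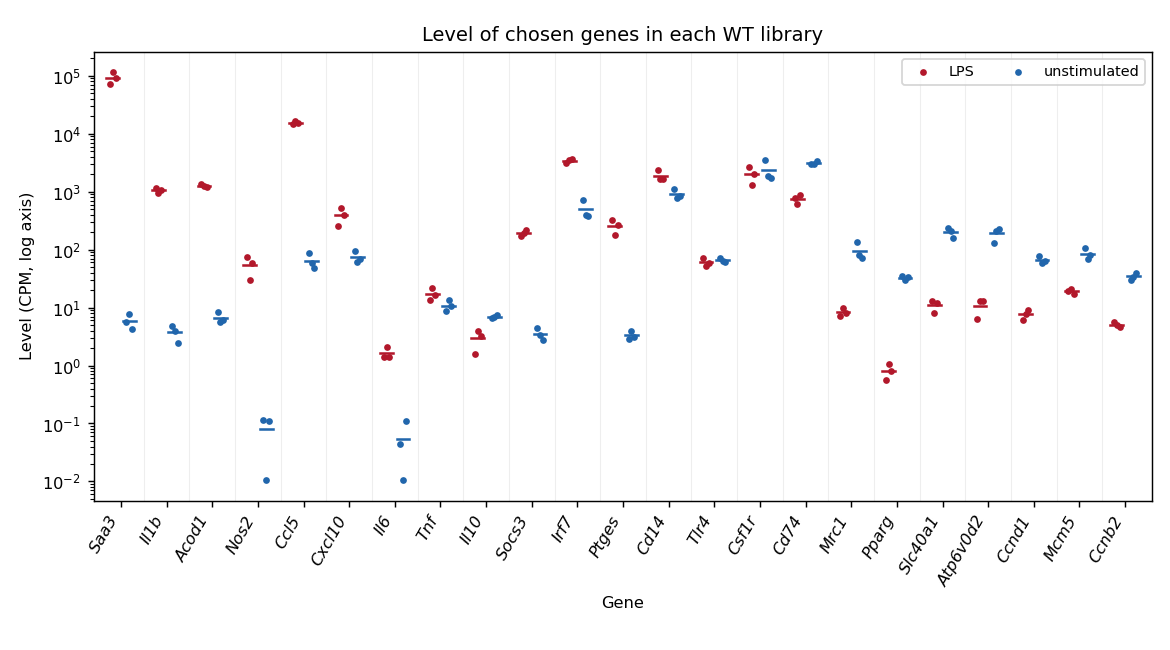
Level of 23 genes in each WT library (CPM on a log axis; dots are libraries, short lines are group means, LPS in red to the left of unstimulated in blue). Saa3, Il1b, Acod1, Nos2 and Ccl5 are separated by a factor of more than 64. Tnf, Tlr4 and Csf1r did not pass, and the genes from Cd74 to Ccnb2 were lower with LPS.

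Chemokine genes were led by Ccl5, which attracts T cells and monocytes. It had 14539, 16673 and 15153 CPM with LPS, against 87.4, 58.2 and 48.9 CPM without it (7.94, SE 0.23), and took between 1.33% and 1.38% of the reads of each LPS library. Of the 13 CC chemokines tested 6 rose and 2 fell, and on the read scale 5 and 4. Ccl8, Ccl12, Ccl7 and Ccl2, which lie side by side on chromosome 11 and attract monocytes, rose by 5.26, 3.93, 2.38 and 1.36, though Ccl2 did not pass without LPS replicate 2 or 3. Ccl24, an eosinophil attractant, and Cx3cl1 fell, with differences of -1.62 and -4.40. Of 9 CXC chemokines 8 rose and 1 fell. Cxcl10, an interferon-induced attractant of T cells, had 252, 513 and 400.3 CPM with LPS and 95.2, 61.2 and 67.7 CPM without it (2.35), and its relatives Cxcl11 and Cxcl9 rose by 6.84 and 1.83. The neutrophil attractant Cxcl3 rose by 5.84, and Cxcl14 fell by 1.70.

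Receptors for attractants split evenly, with 7 of 18 higher and 7 lower; without LPS replicate 3, 4 were lower, and on the read scale 4 were higher and 10 lower. The formyl peptide receptors, which detect bacterial and mitochondrial peptides, rose steeply: Fpr1 had 961, 860.0 and 863 CPM with LPS, against 14.4, 7.38 and 6.86 CPM without it (6.63), and Fpr2 rose by 5.71. Ccr7, which directs cells to lymph nodes, rose by 3.91. Ccr2, the monocyte receptor for CCL2, had 24.2, 19.8 and 17.9 CPM with LPS and 65.3, 69.9 and 65.3 CPM without it (-1.71), and Cxcr3 and Gpr183 fell by 2.07 and 3.54.

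Feedback genes moved in both directions: 10 of 23 rose and 6 fell, against 7 and 9 on the read scale. Socs3, a suppressor of cytokine receptor signalling, had 169, 195 and 218 CPM with LPS, against 4.51, 3.42 and 2.73 CPM without it (5.79). Il1rn, the interleukin-1 receptor antagonist, and Il18bp, which captures interleukin-18, rose by 1.96 and 2.11. The phosphatase Dusp4 and the nuclear receptor Nr4a1 fell by 3.18 and 3.50.

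Interferon-stimulated genes were raised broadly. Of 69 antiviral members tested 49 rose and none fell, with a median of 0.96, and of 0.45 on the read scale, where 31 rose and 1 fell. Irf7, the factor that amplifies type I interferon, had 3124, 3492 and 3701 CPM with LPS, against 711, 390.4 and 386 CPM without it (2.85, SE 0.26). Usp18, which removes ISG15 and damps interferon signalling, rose by 2.38, the nuclease Isg20 by 2.63 and the membrane protein Ifitm3, which blocks viral entry, by 1.25. Slfn1 and Slfn4 rose by 3.97 and 3.17; these belong to a family of similar genes between which reads may be split. Of 16 guanylate-binding proteins and immunity-related GTPases, which attack the vacuoles of intracellular microbes, 13 rose and none fell (median 1.33). Gbp2 had 357, 328 and 407 CPM with LPS and 161, 80.8 and 72.9 CPM in unstimulated cells (1.88), with the same caution about similar family members.

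Regulators of interferon responses were mixed, with 10 of 25 higher and 4 lower (median 0.13, and -0.01 under quantile normalization). On the read scale 6 were higher and 9 lower (median -0.38), and 6 were higher without LPS replicate 3 or without unstimulated replicate 3. Of the lower ones, 1 was left without LPS replicate 1 or 3 or unstimulated replicate 2 or 3, and 2 without LPS replicate 2. Batf, Jak2 and Stat2 rose by 3.45, 2.73 and 1.10. Irf4, a factor of alternative activation, had 2, 0 and 0 reads with LPS and 112, 83 and 67 reads without it, a fall of 6.42.

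The RNA of class I and class II antigen presentation genes went for the most part in opposite directions. Of 24 class I and immunoproteasome genes 19 rose and none fell (median 1.06). H2-T22, a class I molecule, had 603, 769.8 and 764 CPM with LPS, against 169, 132 and 124 CPM without it (2.34), B2m, the common light chain, rose by 1.24 and the proteasome activator Psme2 by 1.53. Class I heavy chains are similar in sequence, so reads may be split between H2-Q6 (3.37), H2-Q7 (3.90) and their relatives. Of 12 class II genes 7 fell and 1 rose (median -0.95). Cd74, the invariant chain, had 777, 619 and 883 CPM with LPS, against 3049, 2958 and 3425 CPM without it (-2.06, SE 0.20). Ciita, the activator of class II transcription, fell by 3.20, the chains H2-Aa, H2-Ab1 and H2-Eb1 by 2.36, 1.41 and 2.18, and March1, the ligase that marks class II molecules for breakdown, was the member that rose (2.30).

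Surface molecules that act on T cells were also mixed, with 9 of 20 higher and 5 lower (6 and 9 on the read scale, and 3 lower without unstimulated replicate 2). Cd274, the checkpoint ligand PD-L1, rose by 2.56, with 203, 183 and 263 CPM in LPS libraries and 37.6, 37.3 and 34.2 CPM in unstimulated libraries, and Cd40 rose by 1.34. Cd83 fell by 4.35 and Havcr2, which encodes TIM-3, by 3.20. Cd38, an enzyme that consumes NAD, was among the largest rises of all, with 497, 379 and 452 CPM with LPS, against 0.654, 0.284 and 0.644 CPM without it (9.80, SE 0.31).

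Enzymes of arginine and itaconate metabolism included some of the steepest rises. Nos2, which makes nitric oxide from arginine, had 74.3, 30.4 and 59.8 CPM with LPS, against 0.116, 0.0105 and 0.109 CPM without it (9.97, SE 0.83, limma adjusted p 3.04e-05). Acod1, which makes itaconate from the citric acid cycle intermediate aconitate, had 1355, 1241 and 1206 CPM with LPS and 8.32, 5.55 and 6.08 CPM in unstimulated cells (7.59, SE 0.18). Ass1, which regenerates arginine from citrulline, and the arginine transporter Slc7a2 rose by 4.69 and 3.12. Both arginases rose too: Arg1, a marker of alternative activation that competes with Nos2 for arginine, had 21.4, 7.61 and 12.6 CPM with LPS, against 0.0448, 0.495 and 0.352 CPM without it (6.00), and Arg2 rose by 5.56. Ornithine decarboxylase Odc1 and the arginine transporter Slc7a1 fell by 1.24 and 1.16. In all, 8 of 19 members rose and 5 fell, with 3 lower without LPS replicate 3 and 9 lower on the read scale.

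Of the prostaglandin and leukotriene genes 8 of 21 rose and 7 fell, against 8 and 9 on the read scale. Ptges, a synthase of prostaglandin E2, had 318, 181 and 265 CPM with LPS, against 2.86, 3.91 and 3.15 CPM without it (6.25), and Ptgs2, the inducible cyclooxygenase, had 4.00, 2.06 and 2.51 CPM with LPS and 0.260, 0.390 and 0.255 CPM without it (3.22). The constitutive cyclooxygenase Ptgs1 had 3.68, 2.12 and 2.29 CPM with LPS, against 46.9, 28.8 and 27.2 CPM, a fall of 3.67. With the fall of Hpgd given above, Ptges and Hpgd moved in opposite directions, as did the 2 cyclooxygenases.

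Glycolysis and hypoxia genes rose in 28 of 37 cases and fell in 2 (median 1.32, and 0.81 on the read scale). Hif1a, the hypoxia factor that LPS also induces, had 123, 57.6 and 71.3 CPM with LPS, against 15.9, 10.5 and 11.1 CPM without it (2.69). Slc16a3, which exports lactate, rose by 3.35, Pfkfb3, which activates phosphofructokinase, by 3.43 and Pgam1 by 1.49. Gapdh, often used as a reference gene, had 2728, 1814 and 1918 CPM with LPS and 813, 559.6 and 674 CPM in unstimulated cells, a rise of 1.65 (limma adjusted p 5.76e-04). Of other common reference genes, Actb and Tbp did not pass, at 0.14 and -0.06, and Hprt stood lower, at -0.79. Actb stood at -0.37 on the read scale and -1.05 under quantile normalization.

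Nuclear genes of the respiratory chain rose modestly, whereas those of the mitochondrial genome did not pass. Of 37 complex I subunits 21 rose and none fell (median 0.62), and of 36 subunits of complexes III to V 21 rose and none fell (median 0.79). Ndufc1 had 157, 259 and 178 CPM with LPS, against 54.9, 98.6 and 98.1 CPM without it (1.26), and Cox5a rose by 1.18. These counts depend on the libraries and the scale: without LPS replicate 3 they were 9 and 10, without LPS replicate 2 they were 10 and 11, and without unstimulated replicate 3 complex I had 12. On the read scale they were 3 and 3, with 1 lower in complexes III to V, and the medians were 0.11 and 0.28. Under quantile normalization the counts were 9 and 6, with medians of 0.41 and 0.51. Of the 12 mitochondrially encoded genes tested 0 passed with limma, and 0 had an unadjusted p under 0.05 (median -0.25); without unstimulated replicate 1, the library with few mitochondrial reads, 10 of 13 fell and the median was -0.98. Mitochondrial reads averaged 0.863 ± 0.212% with LPS and 1.52 ± 0.936% without it (SD, n = 3 each; exact permutation test, two-sided, p = 0.4, where 0.1 is the smallest possible).

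Mitochondrial ribosomal proteins rose in 14 of 56 cases and fell in none (median 0.32), but in 4 and 5 without LPS replicates 2 and 3, and on the read scale 1 rose, 14 fell and the median was -0.19. Of 33 citric acid cycle genes 8 rose and 2 fell (median 0.19). On the read scale 5 rose and 8 fell (median -0.32), and under quantile normalization 5 rose and 3 fell. Sdhb and Sdhd, subunits of succinate dehydrogenase, rose by 0.98 and 0.91, and Idh2, the mitochondrial isocitrate dehydrogenase, fell by 0.80. Coq6, the enzyme altered in the rest of the study, had 10.6, 12.5 and 12.6 CPM with LPS and 11.5, 11.2 and 10.9 CPM in unstimulated WT cells and did not pass (0.08, 95% interval -0.27 to 0.43, limma adjusted p 0.729); on the read scale it stood at -0.43. Of 14 genes of coenzyme Q synthesis 2 rose (14.3%) and 0 fell, near the 15.1% higher among all genes tested. On the read scale 0 rose and 4 fell. The 2 that rose, Coq2 and Coq10b (0.90 and 0.74), did not pass on the read scale, nor did Coq10b without LPS replicate 2 or 3.

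**Figure D3:**
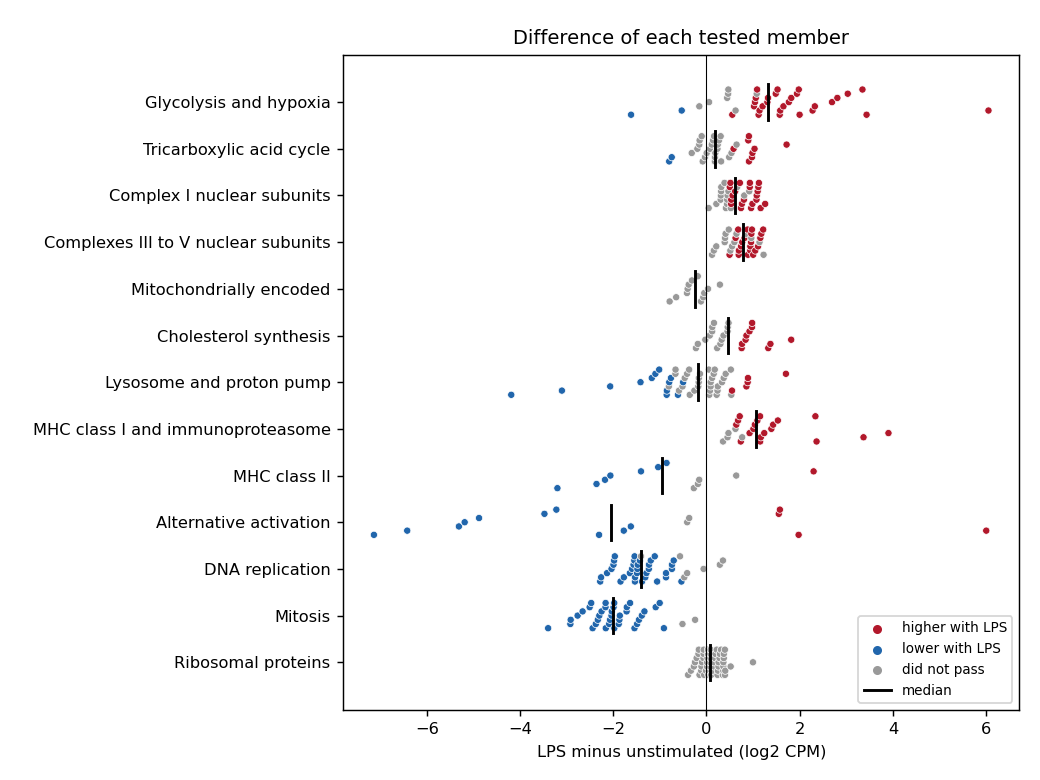
Each point is 1 tested member of a list, placed by LPS minus unstimulated (log2 CPM, 3 libraries each) and coloured by its call at a limma adjusted p under 0.05; black bars are medians. Mitosis and DNA replication genes lie almost wholly to the left of 0 and class I genes to the right, while the cholesterol and citric acid cycle medians (0.45 and 0.19) turn to -0.06 and -0.32 on the read scale.

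Of 35 genes of lipid handling 12 rose and 9 fell; 6 rose without LPS replicate 3, 7 without unstimulated replicate 2, and on the read scale 6 rose and 15 fell. Acsl1, which activates fatty acids and is induced by LPS, had 767, 398 and 574 CPM with LPS, against 32.1, 23.1 and 19.2 CPM without it (4.53), and the desaturase Scd2 and the triglyceride enzyme Dgat2 rose by 2.74 and 3.12. Pparg, the nuclear receptor that drives lipid uptake and alternative activation, had 0.568, 1.06 and 0.789 CPM with LPS and 34.5, 30.2 and 34.2 CPM without it (-5.40, SE 0.25). Lipoprotein lipase, Lpl, had 304, 398 and 395 CPM with LPS, against 3059, 2537 and 2900.3 CPM (-2.96), the lysosomal lipase Lipa fell by 2.37, and Apoe, which carries cholesterol out of the cell, by 1.22, the last not without LPS replicate 1 or 2. Of 24 genes of cholesterol synthesis 10 rose and none fell (median 0.45, and -0.06 on the read scale, with 5 higher and 4 lower); Mvd and Fdps, enzymes of the mevalonate pathway, rose by 1.82 and 1.33.

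Of 24 iron and heme genes 10 rose and 6 fell (6 rose without LPS replicate 3 or unstimulated replicate 2 or 3; 5 rose and 13 fell on the read scale). Fth1, the ferritin heavy chain that stores iron, took 11.5%, 12.8% and 12.3% of all reads with LPS, against 3.11%, 4.34% and 4.29% without it, and rose by 2.16 (SE 0.24, limma adjusted p 1.52e-04). Quantile normalization, which gives all libraries the same highest values, left it at 0.32 without a call. Slc40a1, ferroportin, the exporter of iron, had 13.03, 8.14 and 11.8 CPM with LPS and 238, 210.3 and 160.3 CPM in unstimulated cells (-4.22), and Trf, transferrin, fell by 2.85. Cp, a ferroxidase, and Hmox1, which breaks down heme, rose by 3.33 and 1.67. The 10 genes with the most reads in a library together took 34.9 ± 2.21% of the reads with LPS and 20.8 ± 0.763% without it (SD, n = 3 each; exact permutation test, two-sided, p = 0.1, the smallest possible). 

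**Figure D4:**
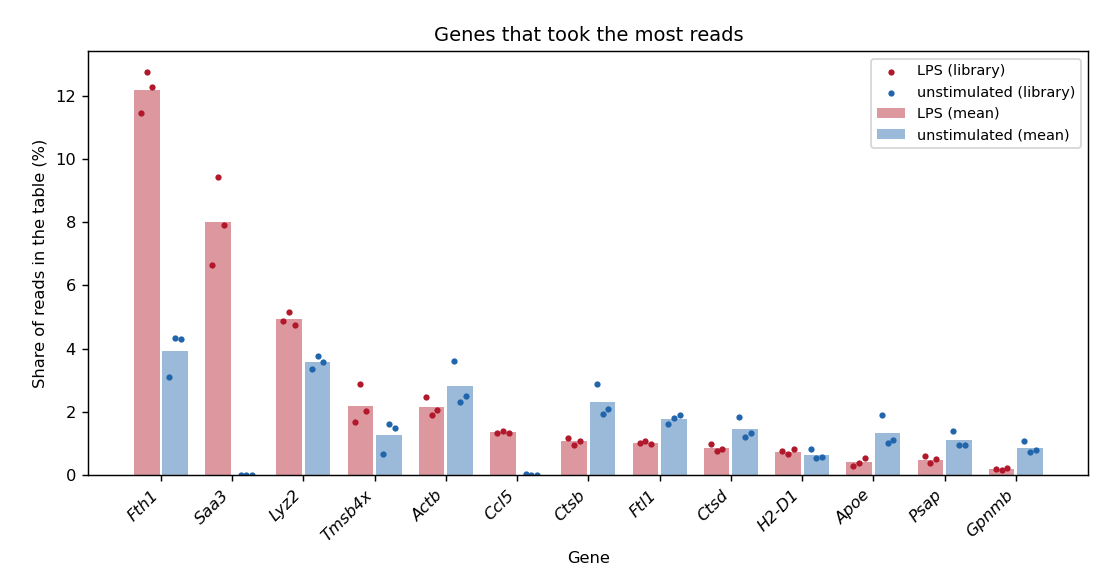
Share of the reads in the table taken by the 13 genes shown (percent; bars are group means, dots are libraries, LPS in red to the left of unstimulated in blue). Fth1, Saa3 and Ccl5 took more of the reads with LPS, and Apoe, Psap and Gpnmb took less.

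Against oxidative stress, Sod2, the mitochondrial superoxide dismutase and a target of NF-kB, had 1535, 1337 and 1319 CPM with LPS, against 78.8, 56.1 and 58.9 CPM without it (4.45), and Prdx5 rose by 3.21; of 31 antioxidant and glutathione genes 11 rose and 3 fell, with 1 lower without LPS replicate 3 and 8 on the read scale. Catalase, Cat, fell by 0.87, but not without LPS replicate 2 or 3. Of the 8 genes of the phagocyte oxidase, which makes superoxide, 5 rose and none fell (median 0.68). On the read scale 3 rose and 1 fell (median 0.17), and under quantile normalization 3 rose and 0 fell. Cybb, its catalytic subunit, had 3159, 1877 and 2347 CPM with LPS and 1161, 742 and 721 CPM without it (1.496), and Ncf1 rose by 1.49.

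Markers of alternative activation fell in 10 of 16 cases and rose in 4, with a median of -2.04. Mrc1, the mannose receptor, had 7.23, 9.85 and 8.05 CPM with LPS, against 137, 79.5 and 72.5 CPM without it (-3.48, SE 0.25), and the lectin Clec10a and the factors Egr2 and Myc fell by 5.19, 4.88 and 5.31. Arg1, Ccl22 and the interleukin-4 receptor Il4ra were among the 4 that rose. Among phagocytic and scavenger receptors 17 of 34 fell and 10 rose: Stab2 and Cd300a fell by 4.14 and 2.89, and the Fc receptors Fcgr2b and Fcgr1 rose by 2.15 and 1.35. Growth factor and tissue-remodelling genes fell in 12 of 18 cases and rose in 1 (median -1.62); the anchored ligand Kitl and Pdgfb fell by 4.03 and 3.05, and Igf1 had 191, 233 and 223 CPM with LPS and 577, 616 and 636 CPM without it (-1.50).

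Of the 48 lysosome and proton pump genes 13 fell and 5 rose, and on the read scale 28 and 2. Without LPS replicate 3, 8 fell and 3 rose; 3 also rose without unstimulated replicate 2 or 3, and 9 without unstimulated replicate 1. The proton pump subunit Atp6v0d2 had 6.41, 12.8 and 12.8 CPM with LPS, against 132, 209.8 and 231 CPM without it (-4.19), Atp6v0a1 fell by 3.10, and Tfeb, the factor that drives lysosome genes, by 1.17. The protease Ctsc rose by 1.70.

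Genes of cell division fell nearly throughout. Of 38 mitosis genes 36 fell and none rose (median -2.01), and of 41 DNA replication genes 34 fell and none rose (median -1.405); the highest medians under the other scalings were -1.96 and -1.32. Ccnb2, a mitotic cyclin, had 5.63, 5.04 and 4.55 CPM with LPS, against 30.1, 33.8 and 39.7 CPM without it (-2.76). Mcm5, part of the replicative helicase, had 19.1, 21.1 and 17.4 CPM with LPS and 108, 69.3 and 79.8 CPM in unstimulated cells (-2.13), and Rrm2, which makes deoxynucleotides, fell by 1.77. Ccnd1, the cyclin that colony-stimulating factor induces, had 6.04, 7.82 and 8.97 CPM with LPS, against 78.1, 57.8 and 63.9 CPM without it (-3.14), and Cdk6 fell by 1.76. Of 32 genes of pentose phosphate and nucleotide synthesis 13 fell and 4 rose (21 and 3 on the read scale), with Tyms and Tk1 at -1.43 and -1.57 and the uridine phosphorylase Upp1 at 4.99. Cytosolic ribosomal protein genes, by comparison, passed in 0 of 53 cases with limma, where 1 was higher and 1 lower at an unadjusted p under 0.05 (median 0.08, and -0.18 and -0.42 under quantile normalization and on the read scale); without unstimulated replicate 1, 4 fell.

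**Figure D5:**
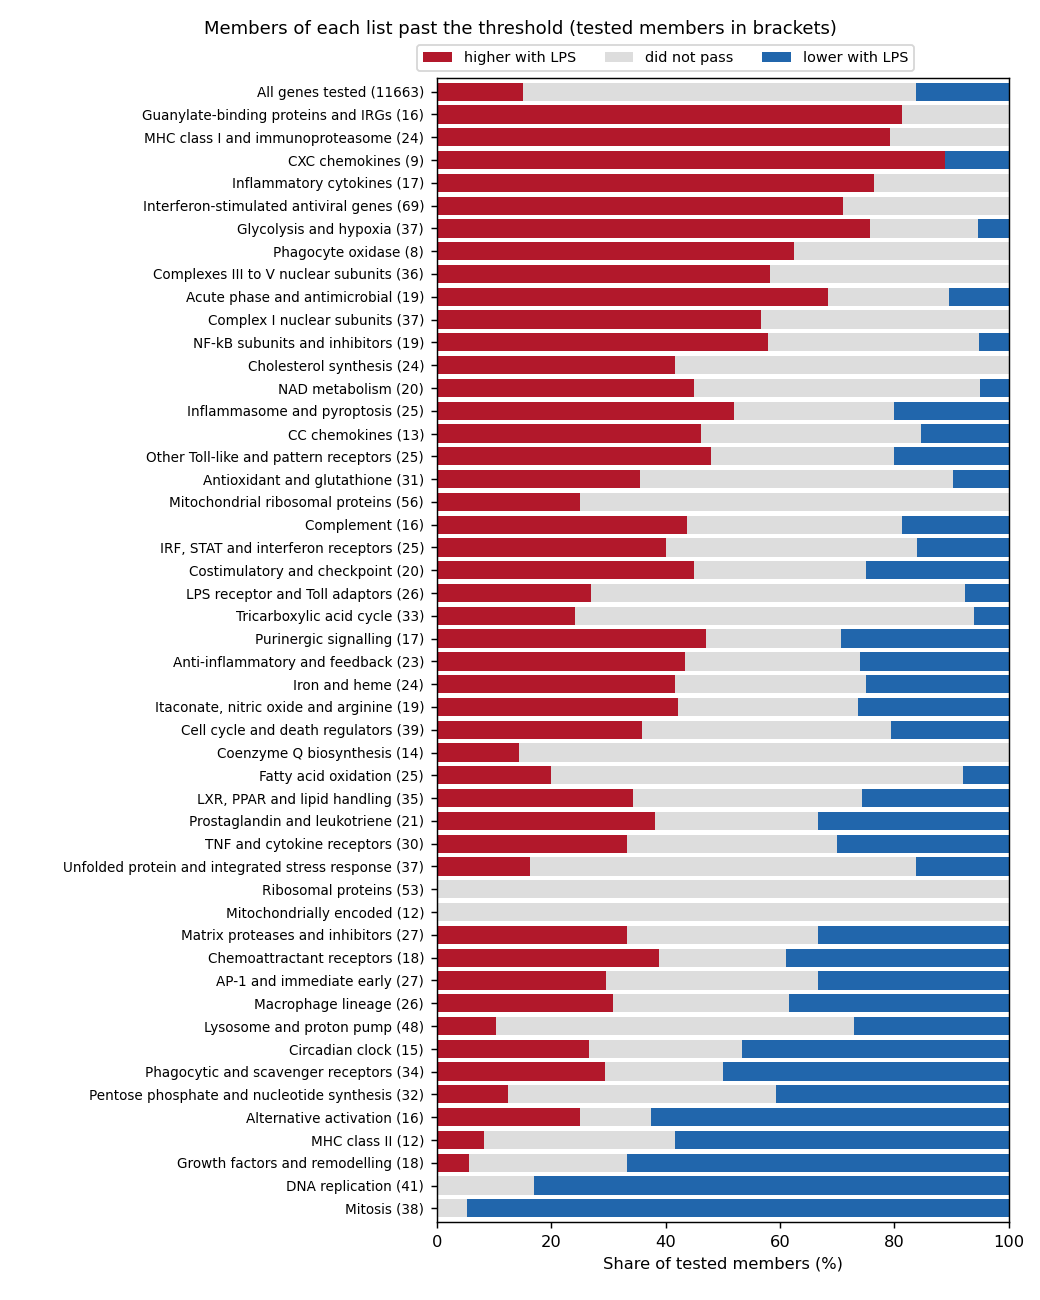
Share of the tested members of each list that were higher with LPS (red), lower (blue) or did not pass (grey) at a limma adjusted p under 0.05, with all genes tested at the top (15.1% higher, 16.2% lower) and lists ordered by the share higher minus the share lower. Guanylate-binding proteins and class I genes stand at one end and DNA replication and mitosis at the other; on the read scale fewer genes are higher and more are lower in most lists.

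The 6 D316Y libraries give the same comparison in cells that share no library with these. Of the 3610 WT calls tested in both genotypes, 3262 (90.4%) were also called in D316Y in the same direction, which is 71.8% of the 4544 D316Y calls (39.4% of the 11540 genes tested in both), and 0 were called in the opposite direction. Saa3 rose by 13.97 in WT and 14.19 in D316Y, Nos2 by 9.97 and 11.09, Il1b by 8.20 and 8.91, and Mrc1 fell by 3.48 in WT and had -4.10 in D316Y. The difference between the genotypes in the LPS response passed for 0 of 11918 genes (limma), with 251 (2.11%) at an unadjusted p under 0.05.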

How the data were processed

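RNA of 12 libraries was sequenced, and the 6 WT libraries were compared here. The authors deposited log2 CPM (counts scaled to 1 M reads) of all libraries in tables that hold the same values; per the submitters' processing notes the tools included STAR 2.5.1a, featureCounts 1.4.6-p5, edgeR and limma, while build, annotation and strand setting were not given in the sources used here. Each deposited log2 value equals log2 of (reads + 0.5) over an effective library size: all values under 200 reads lay within 0.01 of a whole read, which gave the reads and CPM printed. The effective sizes were 43.1, 38.0 and 41.2 M with LPS and 55.8, 47.5 and 41.2 M without it, against 47.2, 46.1 and 46.6 M and 46.9, 36.9 and 32.8 M reads of the table, so a gene with an equal share of reads stands higher with LPS on the deposited scale.

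Of 12493 entries, 52 repeated an identifier and were taken once; all 12441 identifiers matched GENCODE M21 (GRCm38), which gave positions and lengths. Genes averaging 0 log2 CPM or more in either group were tested with limma 3.58.1 in R 4.3.3: a linear model of the 6 libraries, eBayes with trend and robust, two-sided, with Benjamini-Hochberg adjustment over 11663 genes and a threshold of 0.05. The count tests of edgeR were not run, since the deposited unit is log2. The test was also run on simulated data with known changes in a small part of the genes and a common spread for all genes. That setting differs from these data, so the run does not show how the test behaves here. Shares of reads were compared with exact permutation tests; 95% Wilson intervals of single shares were within 0.01 percentage points of the value, and these and the floor of 3 reads cover counting error only.

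The members, the 49 gene lists, the 8 lists of other cell types' markers and the tests were chosen with earlier results of these data known. Lists are described by counts and medians, with no test. Genes named are the 15 largest rises and falls without overlap, up to 6 and 3 members of each list in its main and other direction by adjusted p, the 10 highest per length in each group, and a fixed set that includes Tnf, Il10 and Tlr4; macrophage markers, of which 1 is not reported here, and the genes with the most reads were also fixed. Alternatives changed the filter, scaling, moderation, block and libraries.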

Additional observations from a re-analysis of the deposited data

How the results depend on the processing

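The counts of 1759 genes higher and 1895 lower stayed within 1.5 times under no filter, median centring, quantile normalization, eBayes without trend or robust, and a fit of all 12 libraries. With a test against a minimum change of 1 on the log2 scale, 393 were higher and 432 lower. A stricter filter, a mean of at least 3 log2 CPM, left 1192 lower. On the read scale, chosen after seeing the data, 838 were higher and 5229 lower. Leaving out 1 library in turn gave 1189 to 2065 higher and 1361 to 2097 lower, and leaving out both replicate 1 libraries 2273 and 2381. Replicate numbers were not shown to pair the libraries: deviations of same-numbered libraries correlated at 0.373, 0.200 and -0.051, and not every library correlated best with its own number. A fit with the replicate number as a block gave 2264 higher and 2279 lower, and no gene for the LPS by genotype interaction (0 in both fits). Of the 195 genes named that passed, 12 did not in at least 1 fit without a library, 11 on the read scale and 6 under quantile normalization. Directions reversed as follows, with the cause not tested. Under quantile normalization Actb stood at -1.05 and Lyz2 at -0.57. On the read scale Actb stood at -0.37, Coq6 at -0.43, Mertk at -0.38 and Spi1 at -0.14. Leaving out 1 library in turn, Actb ranged over -0.0088 to 0.3678, Csf1r over -0.4467 to 0.1072, Mertk over -0.0509 to 0.3199, Mpeg1 over -0.2994 to 0.1545 and Tbp over -0.1578 to 0.0231; none of these 5 had passed. Depth limits genes near the filter most, since the floor of 3 reads is largest relative to their level.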

Other observations

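Of 15 genes of the circadian timer 4 rose and 7 fell (4 fell without LPS replicate 3; 2 rose and 10 fell on the read scale). Nr1d1, which encodes the repressor REV-ERB alpha, had 1.03, 0.723 and 0.522 CPM with LPS, against 5.58, 3.21 and 3.24 CPM without it (-2.41, SE 0.36), and its relative Nr1d2 and the period gene Per3 fell by 1.43 and 1.37. Nfil3, which opposes activators of the timer, rose by 1.84. Of 20 genes of NAD metabolism 9 rose and 1 fell (median 0.47); on the read scale 4 rose and 7 fell (median -0.04). Nampt, the salvage enzyme that rebuilds NAD, had 270.3, 265 and 291 CPM with LPS and 158, 125 and 119.5 CPM without it (1.05), and Bst1, a relative of Cd38, rose by 4.38, while Parp1, a large consumer of NAD in DNA repair, fell by 0.93. Adora2a, the adenosine receptor that restrains inflammation, rose by 5.14, and Entpd1, which breaks down extracellular ATP, fell by 3.49. Of the matrix protease genes, Mmp14 and the plasminogen activator inhibitor Serpinb2 rose by 5.58 and 6.67, and Plau, the activator that Serpinb2 blocks, had 0.754, 0.592 and 0.813 CPM with LPS, against 31.1, 40.5 and 41.9 CPM without it (-5.72).

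Some genes that rose lay side by side. The longest run of neighbours that all rose held 11 tested genes on chromosome 19 at 11375523 to 11774960 (GRCm38) and was made mainly of Ms4a membrane genes, with a median of 2.03; Ms4a4c among them had 785, 1036 and 898 CPM with LPS and 116, 86.8 and 76.9 CPM without it. A run of 7 on chromosome 15 at 74876987 to 75135128 held the Ly6 surface antigens (median 4.76), among them Ly6i (8.13), Ly6c2 (7.25) and Ly6c1 (6.44). Other runs of 6 held Ifi200 genes on chromosome 1 and glutathione transferases on chromosome 10. The longest runs that fell held 6 genes each, on chromosomes 11 and 5. Members of these families are similar in sequence, so reads may be split or shared between them, which was not tested.

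The other lists had members in both directions, to be read against 15.1% higher and 16.2% lower among all genes tested. Of 25 inflammasome genes 13 rose and 5 fell (3 fell without LPS replicate 3 or unstimulated replicate 2; 8 rose on the read scale), and of 16 complement genes 7 rose and 3 fell (8 fell on the read scale), with factor B, Cfb, at 7.81. Of 39 cell cycle and death regulators 14 rose and 8 fell (8 and 15 on the read scale, where the median of 0.32 becomes -0.19), and of 27 matrix protease genes 9 rose and 9 fell (8 and 11 on the read scale). Of 30 cytokine receptors 10 rose and 9 fell (6 rose without LPS replicate 3 or unstimulated replicate 2 or 3, and 6 rose and 14 fell on the read scale), and of 17 purinergic genes 8 rose and 5 fell (5 rose without LPS replicate 1 or 3 or unstimulated replicate 2 or 3, 3 fell without LPS replicate 2, and 4 rose and 8 fell on the read scale). Of 27 AP-1 and immediate early genes 8 rose and 9 fell, against 3 and 15 on the read scale. Of 37 stress response genes 6 rose and 6 fell, shares near those of all genes (14 rose without unstimulated replicate 1; 2 rose and 15 fell on the read scale). Of 25 fatty acid oxidation genes 5 rose and 2 fell (0 or 1 fell without any 1 library; 2 rose and 14 fell on the read scale). Among markers of other cells, 3 of 7 tested for monocytes and progenitors rose and 3 fell, as did 3 and 3 of 7 for dendritic cells and 3 and 2 of 7 for stroma and osteoclasts. For T and NK cells 0 of 2 rose and 1 fell, for mast cells, basophils and eosinophils 0 of 2 rose and 2 fell, and for erythroid cells and platelets the 1 that could be tested, Pf4, rose (0.93), which macrophages also express.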
